A study of Mus musculus with 24 samples.

Results

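The genes described here are 34 targets of the nuclear receptor PPAR alpha and enzymes of fatty acid oxidation. They were chosen by name as known members of the pathway, with earlier results of these data known. The rule for the genes uses no measured value, while the probe of highest mean stood for each gene. All 34 had a probe among the 21370 named genes of the arrays.

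Expression was measured on 24 one-colour arrays in 6 female mice, each of which gave liver, brain, heart and skeletal muscle. In 3 mice Rap1 (gene symbol Terf2ip), which encodes a subunit of the telomeric shelterin complex, carried the I312R point mutation introduced with CRISPR/Cas9, and 3 mice were wild type (WT). The knockin (KI) mice, homozygous by the study's account, were labelled RAP1 MUT and belong to a line backcrossed to C57BL/6N 4 times. Residue 312 is needed for RAP1 to bind TRF2, through which it sits at telomeres, and the study asked how RAP1 that is free of telomeres alters transcription and metabolism. Letters A, B and C stand for the KI mice and D, E and F for the WT mice. One mouse of each genotype, C and F, was 14 months of age, and A, B, D and E were 15 months. The arrays form 8 groups of 3 separate mice, with WT tissue as the background for each KI value.

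PPAR alpha is a transcription factor that fatty acids activate, most of all in the fasting liver, and that pairs with RXR on a repeated DNA motif. Its targets carry fatty acids into mitochondria as carnitine esters, shorten them by beta-oxidation in mitochondria and peroxisomes, oxidise their omega end by cytochrome P450 enzymes, and release hormones of the fasted state. Liver, heart and oxidative muscle are the tissues known for fatty acid oxidation, while brain relies mainly on glucose.

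Levels are log2 processed signal minus the 75th percentile of the array's signal, so a level of 0 lies at that percentile and a difference of 1 is a doubling. That percentile was a signal of 312.5 to 2519.4, and the share of probes well above background ranged from 49.4% to 68.4% per array. The defining lists of 10 hepatocyte, 10 skeletal muscle fibre and 10 neuron genes were well above background in full on all arrays of their own tissue, and 9 or 10 of 10 cardiomyocyte genes on every heart array. Terf2ip mRNA did not pass the threshold in any tissue, with KI minus WT between -0.33 in liver and -0.07 in muscle. On some arrays the markers of another tissue stood apart. The mean hepatocyte marker level was 4.19 in the brain of KI mouse C and between -3.20 and -1.33 in the other brains. The mean muscle fibre marker level was 0.35 in the liver of KI mouse C and between -5.66 and -4.93 in the other livers. The mean mammary epithelium marker level was -1.14 in the muscle of KI mouse B and between -5.12 and -4.57 in the other muscles. The same list read -2.36 in the brain of KI mouse C and between -4.51 and -3.91 in the other brains. The mean brown fat marker level was 1.82 in the muscle of WT mouse D and 1.79 in that of KI mouse B. It lay between -0.76 and 0.16 in the other muscles. The mean white fat marker level was 1.29 in the heart of KI mouse B and between -1.61 and -0.32 in the other hearts.

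PPAR alpha binds a pair of AGGTCA half-sites that point the same way with 1 base between them. RefSeq promoter windows of the GRCm38.p6 assembly, 300 bases long with 250 before a transcript start and 50 after it, were at hand for 27 of the 34 members, in 30 windows. Both strands were searched with at most 2 mismatches over the 12 half-site bases. The repeat was found in 6 of the 30 windows (20%), of 6 different members, beside 3.86% of all 32851 windows. A single exact AGGTCA on either strand lay in 10 of the 30 windows (33.3%), of 9 different members, and in 16.3% of all windows. Among these, the windows of Fabp1, Acot4, Creb3l3, Plin2 and Ucp3 also hold the repeat, so the counts overlap. Of the 30 windows, 22 begin at the gene's first base and 8 at a start inside the gene. Among the 6 with the repeat, those of Acot4, Creb3l3 and Plin2 lie at starts 1125, 6281 and 158 bases inside the gene. These are matches of letters and not measured binding sites, and elements farther from the start were not searched. The 6 matches, read so that both half-sites run in the direction of AGGTCA, are shown because they are the members whose window holds the motif:
Fabp1: AGGCCATAGGTCA
Acot4: CGGCCAAAGGTCA
Creb3l3: AGGGGAGAGGTCA
Plin2: AGGTCAGGGGTCC
Slc25a20: AGGTGAAAGGTCG
Ucp3: AGGTTTCAGGTCA

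The windows of Fabp1 and Slc25a20 are shown whole, with the match in capitals. They hold, in this order, the match of fewest mismatches and the match nearest to its gene's first base. The liver fatty acid binding protein gene Fabp1 had the closest match, with 1 mismatch, on the opposite strand and beginning 67 bases before the start (chr6:71199629-71199928, plus strand). In the carnitine carrier gene Slc25a20 it lay on the gene's own strand 6 bases after the start (chr9:108661886-108662185, plus strand).
Fabp1 promoter: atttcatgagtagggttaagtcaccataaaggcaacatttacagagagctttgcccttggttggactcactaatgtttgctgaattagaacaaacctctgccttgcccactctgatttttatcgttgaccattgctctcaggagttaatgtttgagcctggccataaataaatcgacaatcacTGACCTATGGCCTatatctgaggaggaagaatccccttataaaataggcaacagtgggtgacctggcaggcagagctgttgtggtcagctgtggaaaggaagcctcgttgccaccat
Slc25a20 promoter: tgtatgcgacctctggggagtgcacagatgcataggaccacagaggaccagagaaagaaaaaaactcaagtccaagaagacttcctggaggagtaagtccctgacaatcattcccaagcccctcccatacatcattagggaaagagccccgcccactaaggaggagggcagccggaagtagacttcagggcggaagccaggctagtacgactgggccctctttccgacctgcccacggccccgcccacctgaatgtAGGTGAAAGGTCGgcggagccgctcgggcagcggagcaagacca

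The members differed widely between tissues. Of the 34, the mean over 6 mice was highest in liver for 20, in heart for 13 and in muscle for 1, Pdk4, and in brain for none. In 16 of the 20, 4 of the 13 and 0 of 1, the highest tissue was called above the next, which required an adjusted p under 0.05 and a difference over 1 (log2). Brain was the lowest tissue for 24 members, and 20 of these were called below the next lowest. In whole tissue, fewer cells of a type and less RNA per cell cannot be told apart.

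**Figure D1:**
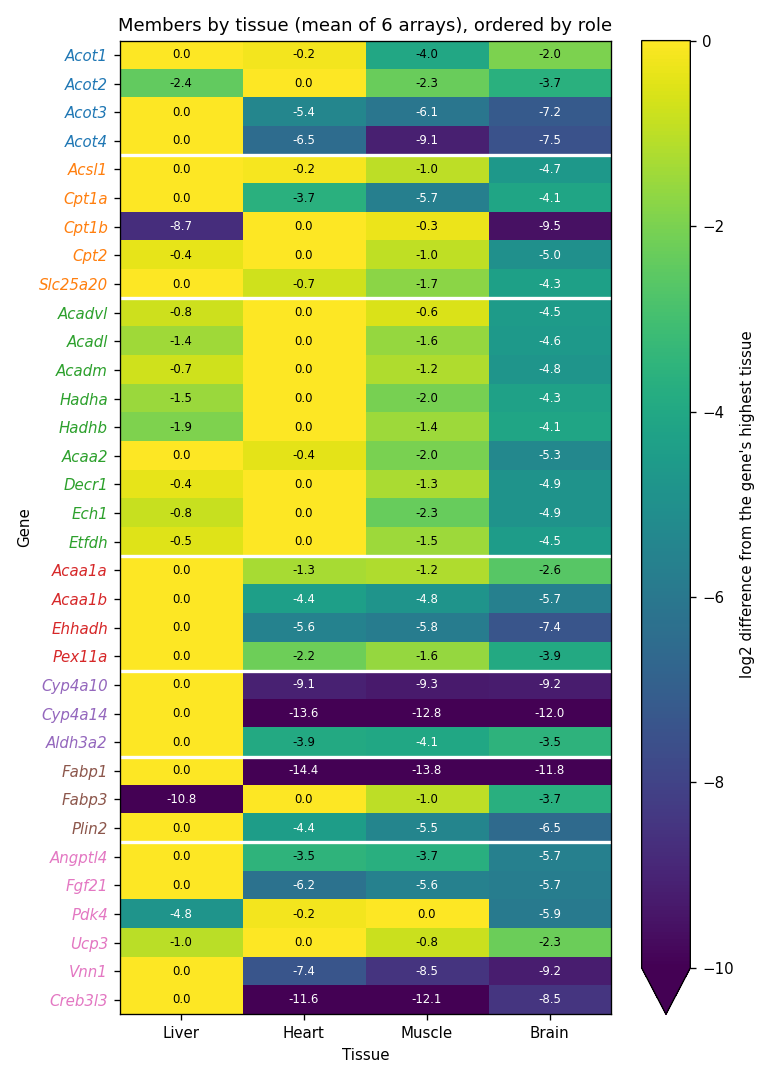
Mean level over 6 arrays of each of the 34 members in each tissue, as the log2 difference from the gene's own highest tissue (0, yellow), with colour cut off below -10 and gene names coloured by role. Mitochondrial beta-oxidation genes lay within 2.34 of their highest tissue in liver, heart and muscle and 4.12 to 5.32 below it in brain. In contrast, Fabp1, Cyp4a14, Cyp4a10 and Creb3l3 were at least 8.45 lower in every tissue outside liver.

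By limma over 24 arrays and 17299 genes, 31 of 34 members were higher in liver than in brain and 1, Fabp3, was higher in brain. Over all genes the shares were 32.2% and 29.5%. Heart was above brain for 27 members and below for 1 (all genes 28.6% and 24.8%), and muscle was above brain for 23 and below for 4 (32.4% and 26.2%). Liver was above heart for 16 members and below for 8 (22.5% and 26.3%), and above muscle for 20 and below for 3 (24.6% and 29.1%). Heart was above muscle for 14 members and below for 0 (15.8% and 15.6%). The median difference over the members was 4.21 for liver minus brain, 2.22 for heart minus brain and 1.78 for muscle minus brain, against 0.19, 0.17 and 0.27 over all genes tested. All livers lay on slide 1, all muscles on slide 3, brains on slides 1 and 2 and hearts on slides 2 and 3. Liver and heart, liver and muscle, and muscle and brain thus shared no slide. The part of slide in the tissue differences was not tested.

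The 4 thioesterases of the Acot cluster, which split acyl-CoA into fatty acid and CoA and lie next to each other in the genome, did not share 1 tissue pattern. Acot1, the cytosolic enzyme, had a lowest, median and highest level of 2.76, 3.58 and 4.42 in liver, 2.70, 3.22 and 4.04 in heart, 1.32, 1.59 and 1.65 in brain, and -2.49, -0.44 and 1.95 in muscle. Liver and heart overlapped (difference 0.17 ± 0.54, SE, adjusted p = 0.785), and both were above brain and muscle. Acot2, the mitochondrial enzyme, was instead highest in heart, with 0.82, 1.39 and 1.75, which was 4.84-fold above muscle (adjusted p = 4.19e-07) and 5.23-fold above liver (adjusted p = 8.75e-08). Its muscle and liver levels overlapped.

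Acot3, a peroxisomal member, had a lowest, median and highest level of 4.56, 5.35 and 5.84 in liver and of -0.87, -0.05 and 0.53 in heart, a 42.6-fold difference (adjusted p = 9.82e-11). Acot4, the other peroxisomal member, had levels of 3.14, 3.33 and 3.75 in liver and of -3.67, -3.25 and -2.47 in heart, an 89.3-fold difference (adjusted p = 3.44e-12). In muscle Acot4 was well above background on 1 of 6 arrays. Acot1 and Acot2 are near-identical in sequence, and a share of signal between their probes was not tested.

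**Figure D2:**
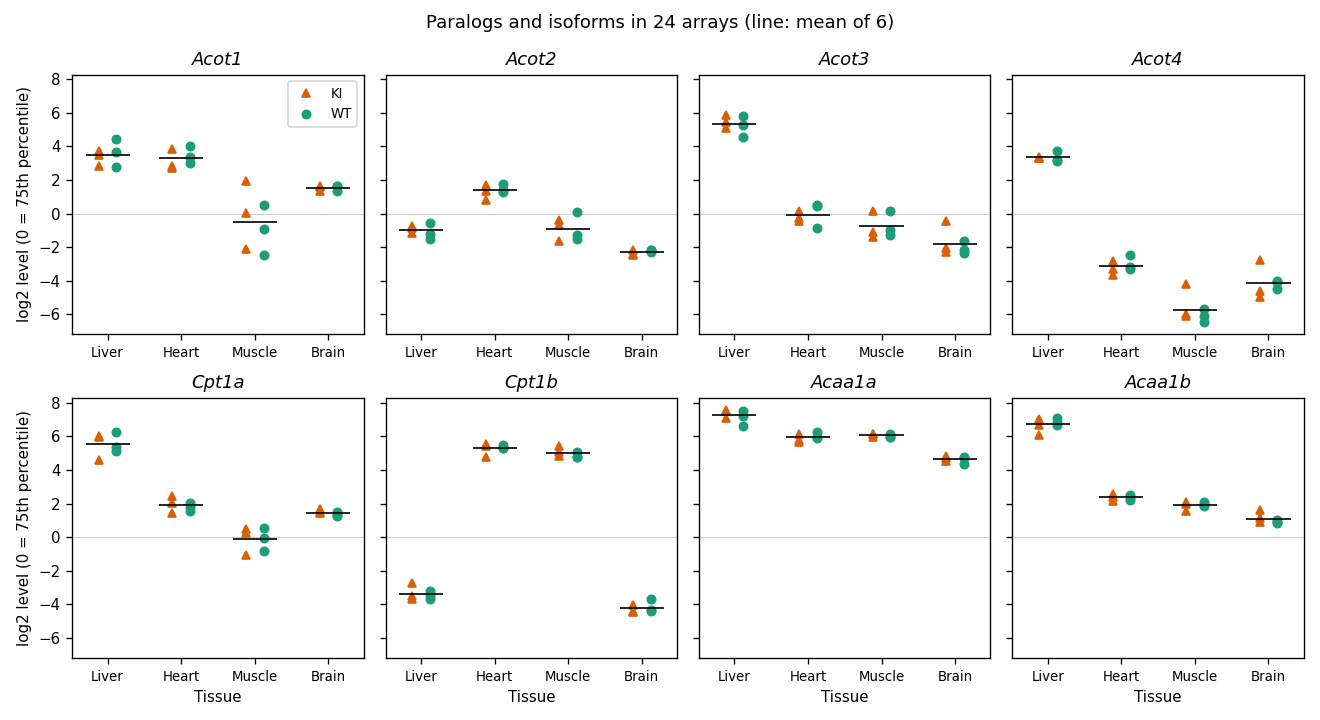
Levels of the Acot, Cpt1 and Acaa1 paralogs on each of the 24 arrays (log2, 0 at the array's 75th percentile), KI as triangles, WT as circles, with the mean of 6 as a line. The mean is highest in heart for Acot2 and Cpt1b and in liver for the other genes. Cpt1b overlaps between heart and muscle, and Acot1 between liver and heart. KI and WT points intermingle in most tissues.

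Of the genes for activation and the carnitine shuttle, Cpt1a and Cpt1b encode the liver and muscle forms of the enzyme that makes acylcarnitine, the controlled step of the pathway. Cpt1a had a lowest, median and highest level of 4.57, 5.68 and 6.28 in liver, 1.47, 1.92 and 2.43 in heart, 1.25, 1.47 and 1.70 in brain, and -1.05, 0.09 and 0.54 in muscle. Liver was 12.7-fold above heart (adjusted p = 1.99e-09), heart and brain overlapped (adjusted p = 0.190), and muscle was 2.95-fold below brain (adjusted p = 0.000122). Cpt1b had levels of 4.78, 5.37 and 5.56 in heart and 4.76, 4.96 and 5.45 in muscle, which overlapped (adjusted p = 0.145), and of -3.69, -3.49 and -2.73 in liver. Heart was thus 411-fold above liver (adjusted p = 5.63e-18). The second probe of each gene gave the same highest tissue. Cpt2, Acsl1 and Slc25a20, which complete the shuttle, stayed within 1.75 (log2) of their highest tissue in liver, heart and muscle and lay 4.30 to 4.97 below it in brain.

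Of the 9 mitochondrial beta-oxidation genes heart was highest for 8 and liver for Acaa2, the last thiolase of the spiral, and all 9 were called higher in liver, heart and muscle than in brain. Between heart and liver 6 of 9 were not called. Of these 9, heart led the next tissue most for Hadha and Hadhb, the subunits of the trifunctional protein, whose genes stand head to head. Hadha had a lowest, median and highest level of 3.38, 4.24 and 4.48 in heart and of 2.15, 2.67 and 2.86 in liver, a 2.86-fold difference. Hadhb had levels of 7.31, 7.85 and 8.18 in heart and of 5.99, 6.29 and 7.01 in muscle, a 2.73-fold difference. Acadl, the long-chain acyl-CoA dehydrogenase, was 2.66-fold higher in heart than in liver.

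The peroxisomal and omega-oxidation genes were highest in liver without exception. Acaa1b, one of the peroxisomal thiolases, was 20.7-fold higher in liver than in heart, whereas its near-identical paralog Acaa1a was 2.28-fold higher than in the next tissue, muscle. Acaa1a levels ran from 6.62 to 7.56 in liver and from 5.99 to 6.15 in muscle, and those of Acaa1b from 6.09 to 7.13 and from 1.57 to 2.11. Ehhadh, the peroxisomal bifunctional enzyme, was 48.0-fold higher in liver than in heart. Pex11a, a factor of peroxisome division, was 2.96-fold higher in liver than in muscle.

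The omega-hydroxylases Cyp4a14 and Cyp4a10 oxidise the far end of fatty acids. Cyp4a14 had a lowest, median and highest level of 5.92, 7.25 and 7.75 in liver, and no heart or muscle array had it well above background. It was at least 5507-fold higher in liver than in heart and at least 2890.5-fold higher than in muscle. These bounds set the measured liver mean against the lowest level well above background on each dim array. Cyp4a10 had levels of 4.93, 6.49 and 7.38 in liver and between -2.98 and -2.68 in heart, a 537-fold difference. Another probe of Cyp4a10 read 6.39 in liver and -7.13 in heart, where no array was well above background, so the 2 probes gave different floors outside liver. Aldh3a2, a fatty aldehyde dehydrogenase, was 11.6-fold higher in liver than in brain.

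Fabp1 and Fabp3, the liver and heart forms of fatty acid binding protein, were opposite. Fabp1 had a lowest, median and highest level of 8.26, 8.98 and 9.30 in liver and of -6.21, -5.82 and -4.19 in heart, where it was well above background on 2 of 6 arrays. Fabp3 had levels of 8.01, 8.22 and 8.46 in heart, 6.09, 7.35 and 8.11 in muscle, 4.35, 4.54 and 4.69 in brain, and -4.14, -3.40 and 1.65 in liver. Heart and muscle overlapped in Fabp3 (adjusted p = 0.202), and heart was 1748-fold above liver. The highest Fabp3 value in liver was that of KI mouse C, the array with muscle fibre markers. Without that liver, a setting chosen after the data were seen, heart was 3129-fold above the other livers. Plin2, the lipid droplet coat protein, was 21.4-fold higher in liver than in heart.

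Of the regulators, Pdk4, the kinase that shuts off pyruvate oxidation, had a lowest, median and highest level of 4.06, 5.77 and 6.97 in muscle, 4.24, 5.65 and 6.62 in heart and 0.25, 0.61 and 1.48 in liver. Muscle and heart overlapped (adjusted p = 0.752), and heart was 24.8-fold above liver. Angptl4, the secreted inhibitor of lipoprotein lipase, was 11.2-fold higher in liver than in heart. Vnn1, a pantetheinase, was 165-fold higher in liver than in heart, where 4 of 6 arrays were well above background. Fgf21, the fasting hormone of liver, was at least 16.0-fold higher in liver than in muscle, where no array was well above background. Creb3l3, a liver-enriched transcription factor, was 350-fold higher in liver than in brain. That brain mean includes KI mouse C, the array with hepatocyte markers, at 0.70, against -3.12 to -2.09 in the other brains. Ucp3, an uncoupling protein of muscle mitochondria, had a lead of heart over muscle of 1.76-fold, below the size required. Its second probe was highest in muscle (0.75, against -0.35 in heart) and was not well above background in any liver, while the probe used here read 0.34 in liver. Ucp3 was the only one of 9 members with several probes whose probes differed in the highest tissue.

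Between KI and WT mice, no member passed the threshold in any tissue. By limma with Benjamini-Hochberg adjustment the share of genes with an adjusted p under 0.05 was 0% in liver, brain, heart, muscle and the mean of the 4 tissues, so the members' count of 0 equals that of the background. With 3 mice against 3, an exact two-sided permutation test of 1 gene cannot give a p under 0.10. Members are therefore described by the size and direction of their differences.

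**Figure D3:**
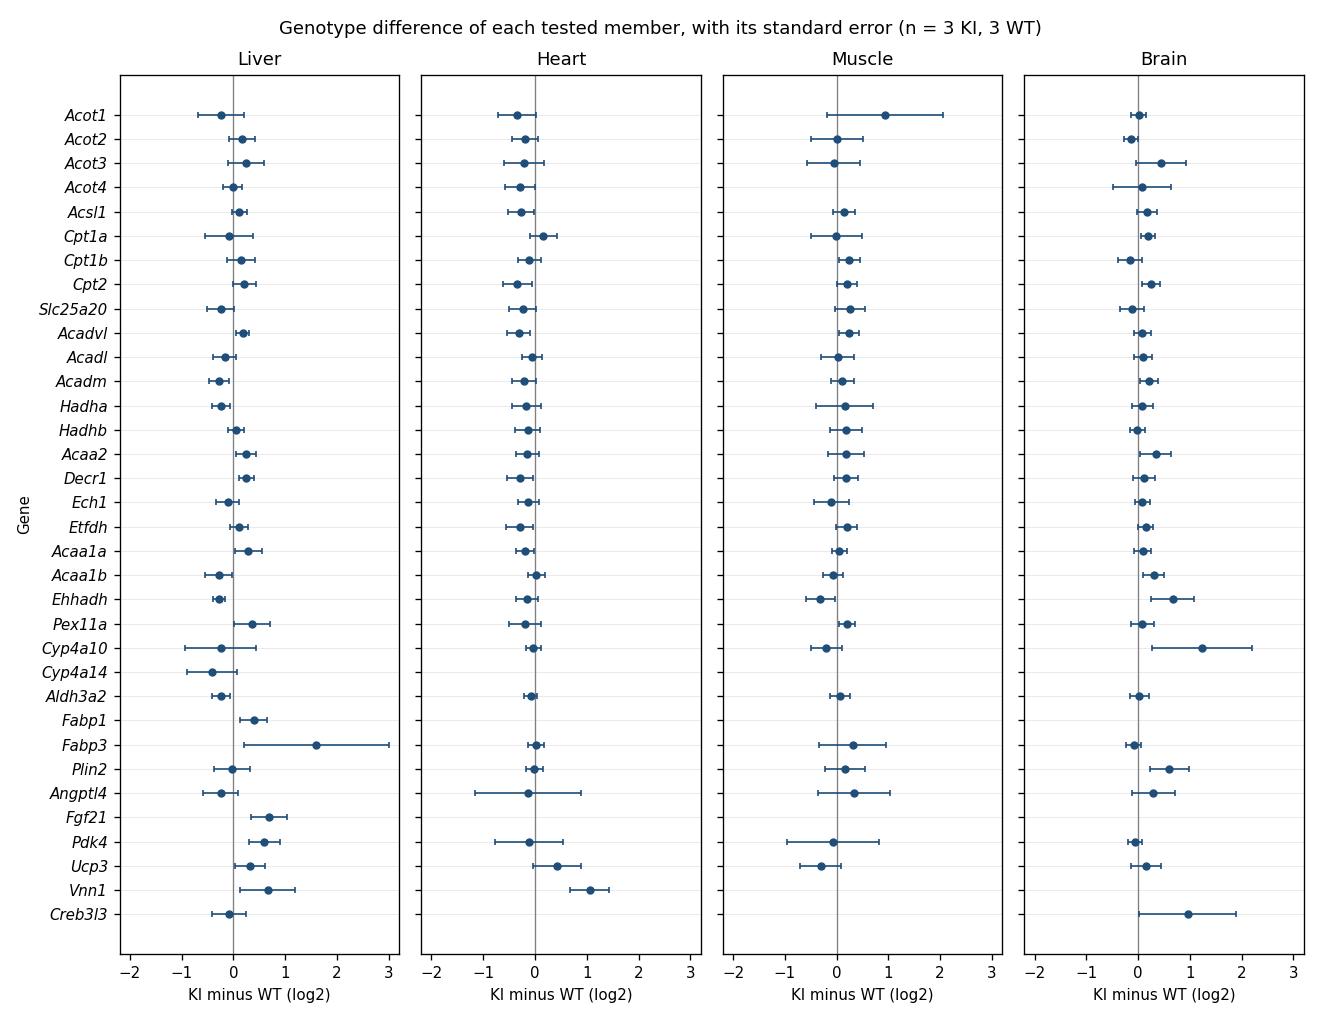
KI minus WT difference (log2) of each tested member in each tissue with its standard error from limma, 3 KI and 3 WT mice a tissue. Most differences lie within 0.5 of 0, and the widest standard errors are those of Fabp3 in liver, Cyp4a10 in brain, Acot1 in muscle and Angptl4 in heart.

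In liver all 34 members were tested among 14092 genes. KI minus WT had a median of 0.08 over the members and 0.04 over all genes, and 18 members were higher and 16 lower in KI. For Acsl1, Cpt2, Decr1, Acot3 and Cpt1b the probe used was higher in KI and the second probe lower. These differences were 0.12 and -0.44 for Acsl1 and 0.21 and -0.37 for Cpt2. Cpt1a went the other way (-0.08 and 0.004), and Fabp3, Ucp3 and Cyp4a10 kept their sign on every probe. At an unadjusted p under 0.05 stood 1 of 34, against 11.7% of all genes. The genotypes did not overlap for 2 of 34 (5.88%), against 19.7% of all genes. The members' shares were thus below those of the background, a difference that was not tested.

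The 3 liver members of smallest p were Ehhadh, Pdk4 and Fgf21. Ehhadh had levels of 5.33, 5.32 and 5.31 in KI mice A, B and C and of 5.70, 5.58 and 5.52 in WT mice D, E and F. Every KI value lay below every WT value, with a difference of -0.28 ± 0.11 (SE, adjusted p = 0.421). Fgf21 had levels of -0.19, -0.14 and -0.09 in KI and of -1.67, -0.49 and -0.30 in WT. The KI values lay close together and all above WT, and WT mouse D stood lowest, with a difference of 0.68 ± 0.35 (SE, adjusted p = 0.474). Pdk4 had levels of 1.33, 0.44 and 1.48 in KI and of 0.42, 0.79 and 0.25 in WT, so the groups overlapped (difference 0.59 ± 0.30, SE, adjusted p = 0.472).

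The largest liver difference was that of Fabp3 (1.60 ± 1.40, SE, adjusted p = 0.624). It read -3.19, -3.72 and 1.65 in the KI livers against -3.61, -4.14 and -2.31 in the WT livers. Mouse C alone stood high, and without that liver the difference was -0.10. On the same array all 10 muscle fibre markers were well above background, against 2 to 8 of 10 on the other liver arrays. Cpt1b, the muscle form, was also highest there, at -2.73.

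Among 79 further genes of fatty acid oxidation and PPAR function, 75 were tested in liver, with 2 higher and 3 lower in KI at an unadjusted p under 0.05 (11.7% of all genes) and 0 past the adjusted threshold. The genotypes did not overlap for 11 of the 75, against 19.7% of all genes. The 3 of smallest p were Acads, Fabp4 and Cd36. Acads, the short-chain acyl-CoA dehydrogenase, had levels of 2.56, 2.52 and 2.25 in KI and of 3.05, 3.24 and 3.11 in WT (difference -0.69 ± 0.14, SE, adjusted p = 0.358). Cd36, the fatty acid transporter, had levels of 2.89, 3.28 and 3.54 in KI and of 0.50, 1.64 and 2.75 in WT (difference 1.60 ± 0.54, SE, adjusted p = 0.402). Fabp4, the fat cell binding protein, differed by 0.59 ± 0.17 (SE, adjusted p = 0.387). For all 3 the genotypes did not overlap. The white fat marker list, which holds Fabp4, had mean levels between -2.58 and -1.70 in KI and between -3.01 and -1.97 in WT livers. The summed level of the 8 macrophage and T cell markers, of which 7 or 8 were well above background on each array, was 5.28 to 5.47 in KI and 4.75 to 4.90 in WT livers, without overlap. The mean level of the same list did overlap, at 0.20 to 0.59 in KI and -0.01 to 0.37 in WT. Of its genes, Csf1r (4.68 to 4.94 in KI, 4.08 to 4.18 in WT), Cd68 (2.75 to 3.05, 2.14 to 2.56), Adgre1 (0.82 to 1.18, 0.21 to 0.63) and Cd14 did not overlap. Ptprc, Cd3e, Cd3g and Cd8a overlapped, and 19.7% of all liver genes did not. The part of these markers in the liver differences was not tested.

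In brain 30 members were tested among 16073 genes, and Cyp4a14, Fabp1, Fgf21 and Vnn1 were too dim. The median difference was 0.10 over the members and -0.03 over all genes, with 24 higher and 6 lower in KI. At an unadjusted p under 0.05 stood 0 members, against 0.79% of genes, and the genotypes overlapped for all 30, against 2.86% of genes with no overlap. Ehhadh had levels of -1.92, -2.22 and -0.61 in KI and of -2.46, -1.94 and -2.35 in WT (difference 0.67 ± 0.41, SE, adjusted p = 1.00). Plin2 had levels of 0.31, 0.42 and 1.60 in KI and of -0.12, 0.64 and 0.00 in WT (difference 0.60 ± 0.38, SE, adjusted p = 1.00). Cpt2 had levels of 1.01, 0.57 and 1.12 in KI and of 0.62, 0.66 and 0.66 in WT (difference 0.25 ± 0.17, SE, adjusted p = 1.00). In each of them KI mouse C was the highest brain. Within slide 1 (A against D) and slide 2 (B and C against E and F) the members' median was 0.12 and 0.17.

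The brain of KI mouse C was the highest of the 6 brains for 19 of the 30 tested members (63.3%), against 16.6% of all tested genes. Counting the dim ones too, it was the highest for 22 of 34. Fabp1 read 5.35 there and between -7.82 and -1.72 in the other brains. Cyp4a14 read 1.35, against -7.49 to -4.76, and Vnn1 -2.72, against -7.78 to -6.46. Cyp4a10 read 0.10, against -3.89 to -3.46, and Creb3l3 0.70, against -3.12 to -2.09. Liver was the highest tissue for all 5 of them. In all, 9 of the 34 members lay more than 1 above the highest other brain, 6 of them among the 30 tested, against 2.71% of tested genes. In that brain Fabp1 stood at 6.49% of the level in the same mouse's liver, Cyp4a14 at 1.96%, Creb3l3 at 1.74% and Cyp4a10 at 0.908%. Of the 20 members whose highest tissue was liver, 17 were highest in that brain among the brains, and of the 14 others 5 were. Fgf21, highest in liver, read -6.92 in that brain, against -6.87 to -5.71. It was not well above background there and was so on only 2 of the other brains, so its rank gives no order.

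**Figure D4:**
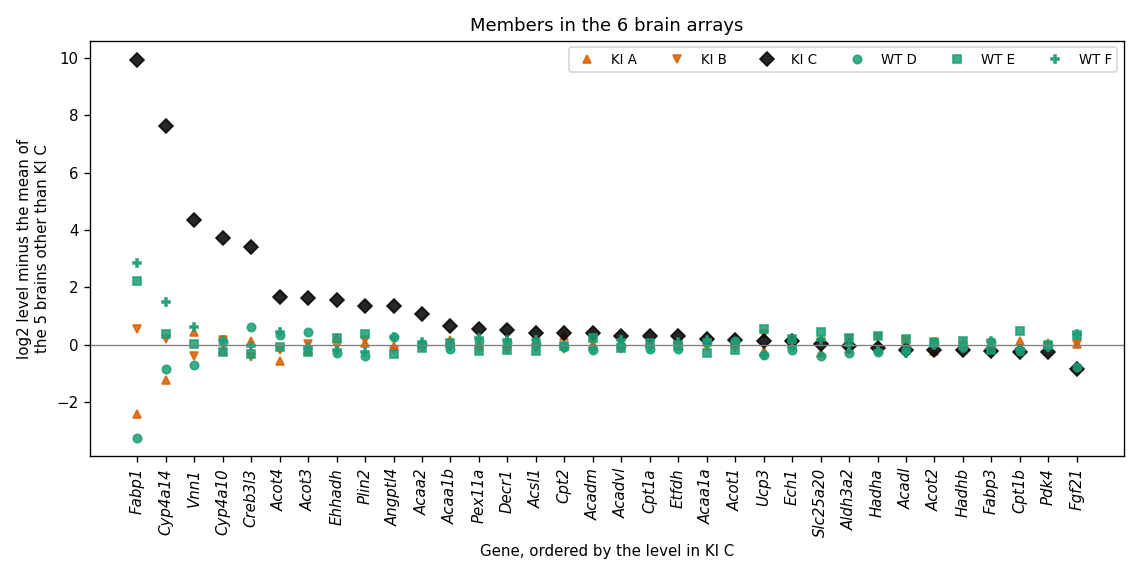
Level of each member on the 6 brain arrays minus the mean of the 5 brains other than KI C (log2), genes in order of the value in KI C (black diamonds). Fabp1, Cyp4a14, Vnn1, Cyp4a10 and Creb3l3 lie 3.40 to 9.94 above the mean of the other brains in KI C. The other brains lie near 0 for most genes, and spread most for the dim Fabp1 and Cyp4a14.

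Without that array the members' median was 0.03, with 16 of 30 higher in KI, and the Cyp4a10 difference went from 1.23 to -0.01. Acot4 then had the only unadjusted p under 0.05 (1.04% of 16119 genes) and the only genotypes that did not overlap (6.58% of genes), with KI minus WT of -0.61 ± 0.22 (SE, adjusted p = 1.00). It read -4.99 and -4.60 in KI mice A and B, and -4.08, -4.49 and -3.99 in WT. No gene passed the adjusted threshold in that comparison (0%).

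In heart 30 members were tested among 14931 genes, and Cyp4a14, Fabp1, Fgf21 and Creb3l3 were too dim. The median difference was -0.15 over the members and -0.05 over all genes, with 5 higher and 25 lower in KI, against 38.2% of all genes higher. All 9 mitochondrial beta-oxidation genes and all 4 thioesterases had negative differences, from -0.32 to -0.06 and from -0.35 to -0.20. None of these passed the threshold. At an unadjusted p under 0.05 stood 1 member, Vnn1 (background 1.64%), and it was also the 1 without overlap (background 5.04%). It entered the fit only because all 3 KI arrays were well above background, against 1 WT array, so that count is not a result about the members. Vnn1 had levels of -4.14, -3.13 and -4.68 in KI and of -4.90, -5.03 and -5.18 in WT (difference 1.05), and with another background correction the difference was 0.41.

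Acadvl, the very long-chain dehydrogenase, had levels of 7.73, 7.40 and 8.21 in KI and of 7.98, 8.002 and 8.32 in WT (difference -0.32 ± 0.23, SE, adjusted p = 0.971). Cpt2 had levels of 5.42, 5.16 and 6.14 in KI and of 5.71, 5.80 and 6.25 in WT (difference -0.35 ± 0.28, SE, adjusted p = 0.971). In both the heart of KI mouse B was lowest and that of WT mouse F highest. The heart of mouse B was the lowest of 6 for 22 of 30 members (73.3%), against 39.9% of all genes, and the heart of mouse F was the highest for 20 (66.7%), against 28.8%. Without the heart of mouse B the median was -0.01 and 14 members were higher in KI. That heart also had the highest mean level of the white fat markers (1.29, against -1.61 to -0.32) and of Ucp3 (2.71, against 0.86 to 1.51). Of the 10 cardiomyocyte markers, 4 that are known from atrial muscle were highest there and next highest in the heart of WT mouse E. Sln read 8.09 in mouse B, 5.54 in mouse E and -6.62 to 0.88 in the other hearts. Myl7 read 7.44, 4.27 and -3.26 to 0.18, Myl4 8.73, 6.99 and 1.11 to 3.52, and Nppa 9.03, 7.69 and 4.49 to 5.31. In contrast, Tnni3, Tnnt2, Actc1, Mybpc3 and Ryr2 of the same list were lowest in mouse B, and Myh6 was lowest in WT mouse D. Tnni3 read 8.02 in mouse B and 8.23 to 8.37 in the other hearts, and Tnnt2 8.45 and 8.61 to 8.83. Mybpc3 read 7.81 and 8.32 to 8.66, and Ryr2 5.07 and 5.38 to 5.77. The mean of the whole list was 8.04 in mouse B and 4.63 to 7.35 in the other hearts, with 9 or 10 of 10 genes well above background. The part of these markers in the result was not tested.

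Hearts of mice C and F lay on another slide than the rest and came from the 14-month-old pair, so slide and age cannot be told apart. Within slide 2 (A and B against D and E) the median was -0.21, with 7 of 30 members higher in KI. Within slide 3 (C against F) it was -0.06, with 6 higher.

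In muscle 28 members were tested among 13517 genes, and Acot4, Cyp4a14, Fabp1, Fgf21, Vnn1 and Creb3l3 were too dim. The median difference was 0.15 over the members and 0.02 over all genes, with 20 higher and 8 lower in KI. At an unadjusted p under 0.05 stood 0 members (background 0.851%), and all genotypes overlapped (3.54% of genes did not). Pex11a had levels of 4.55, 4.59 and 4.28 in KI and of 4.31, 4.21 and 4.30 in WT (difference 0.20 ± 0.16, SE, adjusted p = 1.00). Acadvl had levels of 7.29, 7.67 and 7.50 in KI and of 7.31, 6.98 and 7.44 in WT (difference 0.24 ± 0.19, SE, adjusted p = 1.00). Cpt1b had levels of 4.86, 5.45 and 5.06 in KI and of 4.76, 4.77 and 5.09 in WT (difference 0.25 ± 0.21, SE, adjusted p = 1.00). Acadvl and Cpt1b were highest in KI mouse B. Its muscle had 8 of 10 mammary markers well above background, against 3 or 4 on the other muscle arrays. Without that muscle 12 of 28 members were higher in KI and the median was -0.04. The muscles of KI mouse B and WT mouse D also had the highest mean brown fat marker levels, 1.79 and 1.82, against -0.76 to 0.16. The part of these markers in the differences was not tested. The largest difference, that of Acot1 (0.94 ± 1.12, SE), came from levels of -2.08, 1.95 and 0.04 in KI and of -0.92, -2.49 and 0.50 in WT.

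Of the other pathway genes, 0 of 75 in brain, 0 of 71 in heart and 2 of 71 in muscle stood at an unadjusted p under 0.05, against 0.79%, 1.64% and 0.851% of all genes. Their median differences were 0.08, -0.14 and 0.06, with 16 of 71 higher in heart, where 38.2% of all genes were. Those of smallest p included Acad11 and Nudt7 in brain, and were Ppargc1a, Ppara and Mcat in heart, and Aqp7, Cyp4a31 and Crat in muscle. Ppara itself had heart levels of 4.17, 3.88 and 4.49 in KI and of 4.32, 4.54 and 4.61 in WT (difference -0.31 ± 0.19, SE, adjusted p = 0.971).

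When the tissues of a mouse were averaged, 25 of 34 members were higher in KI with a median of 0.06, against 0.01 over 17299 genes. That median ran from -0.06 (without mouse C) to 0.18 (without mouse F) with each mouse left out. No member stood at an unadjusted p under 0.05 (3.46% of genes) and no genotypes were separate (9.01% of genes). The smallest adjusted p of a member by limma was 0.982. No member passed the moderated F-test of limma for a genotype difference that varies between tissues, with a smallest adjusted p = 1.00, 0 members at an unadjusted p under 0.05 (1.86% of genes) and 0% of genes past the adjusted threshold.

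The median SD between mice within a genotype was higher over the members than over all tested genes, a difference that was not tested. It was 0.37 in liver, 0.35 in heart, 0.43 in muscle and 0.25 in brain, against 0.21, 0.22, 0.28 and 0.22 over all tested genes. In liver the SD of Fabp3, set by mouse C, exceeded that of 99.9% of tested genes and that of Cyp4a10 98.2%, and those of Vnn1, Cyp4a14 and Cpt1a exceeded 96.2%, 95.5% and 95.1%. In heart Angptl4 exceeded 99.6% and Pdk4 98.4% of genes. In muscle Acot1 exceeded 99.6%, Pdk4 99.01%, Angptl4 97.9% and Fabp3 97.1%.

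The mice that stood lowest for these members were of both genotypes. In heart Pdk4 read 4.24, 5.99 and 5.86 in KI mice A, B and C and 5.44, 4.38 and 6.62 in WT mice D, E and F. In muscle it read 4.06, 6.86 and 5.79 in KI and 5.75, 4.22 and 6.97 in WT. In both tissues KI mouse A and WT mouse E were the lowest and WT mouse F the highest. In liver Pdk4 did not follow this order, with WT mouse F lowest at 0.25. Cyp4a10 in liver read 4.93, 6.50 and 6.88 in KI and 6.47, 5.19 and 7.38 in WT, with mice A and E again lowest and F highest. Cpt1a in liver read 4.57, 6.05 and 5.95 in KI and 5.40, 5.14 and 6.28 in WT, in the same order at both ends.

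**Figure D5:**
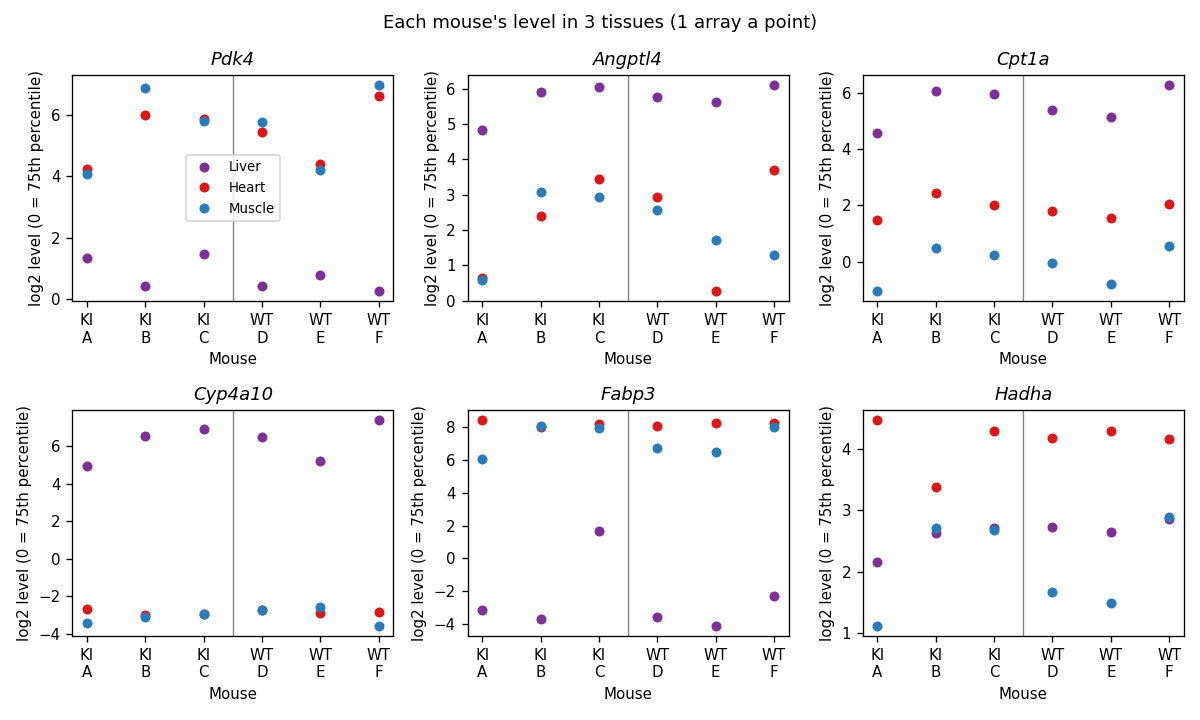
Levels of 6 members (log2, 0 at the 75th percentile) in liver, heart and muscle of each mouse, 1 array a point, KI left and WT right of the line. Mice A and E are the lowest for Pdk4 in heart and muscle and for Cpt1a and Cyp4a10 in liver, and Fabp3 stands high in the liver of KI mouse C.

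Mice A and E were together the lowest 2 for 13 of 34 members in liver (38.2%), against 6.84% of all tested genes, and for 16 of 28 in muscle (57.1%), against 13.2%. This pair was singled out after the values were seen, as the most frequent lowest pair in those tissues. In heart the most frequent lowest pair was A and B, for 10 of 30 members, against 20.6% of genes. Mice A and E were the lowest 2 in heart for 3 of 30 members (10%), against 9.79% of genes. In brain they were so for 2 of 30 (6.67%), against 7.08%, so their shares there and in heart were near those of all genes. Angptl4 in heart read 0.65, 2.40 and 3.45 in KI and 2.94, 0.27 and 3.70 in WT, again lowest in E and A. Angptl4 in muscle read 0.58, 3.08 and 2.93 in KI and 2.56, 1.72 and 1.31 in WT. The mean white fat marker level in muscle was 2.52, 3.97 and 4.16 in KI and 3.75, 3.25 and 2.14 in WT, so mice A and F were the lowest 2 for both. Its part in the Angptl4 values was not tested.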

How the data were processed

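Total RNA of 24 samples was labelled with Cy3 and hybridised to 1 Agilent mouse array each. The authors extracted the scans with Agilent Feature Extraction 12.0.3.1, and the deposited intensity used here is its processed signal, corrected for background within the array. The authors' deposited score table holds z-scores of the log signal within each array and served as an alternative only. No column was left without a sample.

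Control and outlier spots were left out, spots of 1 probe were averaged as log2 signal, and each array was set to its 75th percentile. Probes were named through RefSeq accessions, of which 99.0% of 26732 curated mRNA probes matched, and the probe of highest mean stood for a gene. Genes entered a fit where all arrays of 1 group or more were well above background, and limma 3.58.1 (R 4.3.3) was used (lmFit, eBayes, two-sided, Benjamini-Hochberg, threshold 0.05). The number of arrays, 3 per group, limits the precision. The fits were tested on simulated data. The members, their roles, the other pathway genes and the marker lists were chosen with earlier results of these data known.

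Values on every array were to be given for the 3 members of smallest p per tissue, those without overlap, the 3 members leading each tissue, the paralogs and the members furthest out in the brain of KI mouse C, and counts for the rest. The same number marks the same mouse in all 4 tissues per the labels, so arrays are paired across tissues. A replicate block for the mouse had a consensus correlation of -0.00135. Genotypes share no mouse. Alternatives covered normalization, background correction, scale, filter, probes, weights, blocks and left-out arrays. One of the other pathway genes that this rule would name is not reported here.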

Additional observations from a re-analysis of the deposited data

How the results depend on the processing

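The count of members past the adjusted threshold between genotypes stayed at 0 in each tissue, in the mean of 4 tissues and between tissues under every alternative run, including each array left out and the fit with the mouse as replicate block (0 members in liver). Between tissues the block changed no count of calls. No tissue call of a member was reversed in the 6 tissue pairs under 14 alternatives, and at most 3 were lost in a pair under 1 of them. Heart against brain had 1 member higher in brain, 2 with quantile normalization (Cyp4a14 added), and 1 to 3 with a mouse left out (3 without KI mouse A, Cyp4a14 and Fabp1 added). Muscle against brain had 4 members higher in brain, and 2 with normexp background correction. The liver difference of Fabp3 turned from 1.60 to -0.10 without KI mouse C (-0.10 to 2.58 with each liver left out), and the brain difference of Cyp4a10 from 1.23 to -0.00984 without that mouse's brain (-0.00984 to 1.94 with each brain left out). The median difference of the members turned sign with quantile normalization (-0.02) and the mean over all probes (-0.03) in liver, and with single arrays or mice left out in liver (-0.06 to 0.26), muscle (-0.04 to 0.32) and the mean of 4 tissues (-0.06 to 0.18), and stayed on its side in brain (0.03 to 0.22) and heart (-0.33 to -0.01). Without the liver of KI mouse A, 28 of 34 members were higher in KI. Members at an unadjusted p under 0.05 in heart numbered 0 to 4 with each array left out (4 without KI mouse C), against 1. In heart 12 of 30 were higher with array weights, against 5. The causes were not tested. Probes near background, as those of Vnn1, Cyp4a14, Fgf21 and Fabp1 outside liver, give no order among dim tissues.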
